A study of Mus musculus with 50 samples.

Results

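Rapgef4 encodes Epac2, a protein that binds the second messenger cyclic AMP (cAMP) and then loads GTP onto the small G proteins Rap1a and Rap1b. The Agilent arrays of this series held 18 probes for Rapgef4 and 9 further genes of cAMP signalling, namely Rapgef3, Rap1a, Rap1b, Prkaca, Prkar1b, Adcy1, Adcy8, Pde4b and Pde4d, out of 41174 non-control probes. Of these, 17 carried a RefSeq accession of a member gene. The remaining one, A_52_P456951, was assigned to Rapgef4 because the array file named it by an older symbol of that gene. The set was chosen from measured values: one Rapgef4 probe had a difference of over 2-fold between genotypes, and the other genes were added around it with results of these arrays known. The values of Rapgef4 are therefore given as a description without a test.

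In brain cells, receptors coupled to the stimulatory G protein switch on adenylyl cyclases, which make cAMP from ATP. Adcy1 and Adcy8 encode the cyclases that calcium and calmodulin stimulate, and they are studied in the hippocampus for their part in synaptic plasticity and memory. The messenger acts through protein kinase A (PKA), whose catalytic subunits are held by regulatory subunits until cAMP binds, and through the exchange factors Epac1 and Epac2. Phosphodiesterases such as those encoded by Pde4b and Pde4d end the signal by splitting cAMP.

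The hippocampi of 5 wild-type male C57/BL6j mice (WT) and 5 male transgenic mice (TG) on the C57/BL6j background were compared. The transgenic mice over-expressed DCLK-short, a splice form of the doublecortin-like kinase gene that acts as a constitutively active kinase, and both groups were housed individually before the experiment. The promoter that drove the transgene is not given in the sources used here. On Agilent, RNA of a WT mouse and of a TG mouse was hybridised together on each of 10 two-colour arrays. Every mouse was measured on 2 arrays, once in Cy3 and once in Cy5, each time with a different partner, so the 10 log ratios are not 10 independent animals. A log ratio is given here as log2 of TG over WT after loess normalisation within each array, and its standard error (SE) comes from the empirical Bayes linear regression model fitted to all probes. Differentially expressed probes were those with a false discovery rate (FDR) not above 0.1.

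The direction of every log ratio below follows the sample labels, and it is in doubt. In the study's own table of normalised channel values, 667 genes and 19 Agilent channels could be compared with the arrays. The median over genes of the best correlation with any probe was 0.822 as labelled and 0.935 when arrays 1 to 5 were exchanged with arrays 6 to 10, and 625 of the 667 genes matched better after the exchange. Tmem254a pointed the same way. Its ABI signal was 7000 to 10670 in the 5 WT and 24260 to 30370 in the 5 TG arrays, while on Agilent its log ratio as labelled was below 0 on all 10 arrays, with a mean of −0.99. The directions given here thus oppose those of the study, and the exchange would turn the sign of each of them. The 4 probes of Dclk1, the gene of the transgene, lay between −0.08 and −0.06 on average with FDR from 0.492 to 0.729, and did not settle the direction.

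The RNA labelled TG4, hybridised on arrays 1 and 9, stood apart from the rest. On both of its arrays 714 probes (1.73% of all) were below −1, against 0 to 2 probes for every other mouse. WT3 and WT4 had 101 and 84 probes above +1 on both of their arrays. The SD of all log ratios was 0.321 on array 1 and 0.384 on array 9, and from 0.138 to 0.226 on the other 8. The position of a probe in its gene moved with this RNA. In 4257 genes with several probes above the negative controls, the log ratio of the most upstream probe minus that of the most downstream probe was below −1 in 9.11% of genes on array 1 and 10.8% on array 9, but in 0.047% to 0.164% of genes on the other arrays. It was above +1 in 0.728% and 1.13% of genes on arrays 1 and 9. If the arrays were exchanged, both channels of this RNA would belong to one WT mouse, WT5. The log ratios of the members are therefore given with and without this mouse. The part of probe position or RNA quality in the results was not tested. All 8 hippocampal neuron markers were above the negative controls on all arrays, but so were all 8 striatal and 4 of 5 thalamic markers. TG4 had the highest summed level of any mouse for neuronal (25920) and astrocyte (4209) markers. It had the lowest for oligodendrocyte (12210), thalamic (714.7) and endothelial (1015) markers. For striatal, choroid plexus, microglial and blood markers other mice were at both ends. The part of tissue make-up was not tested.

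**Figure D1:**
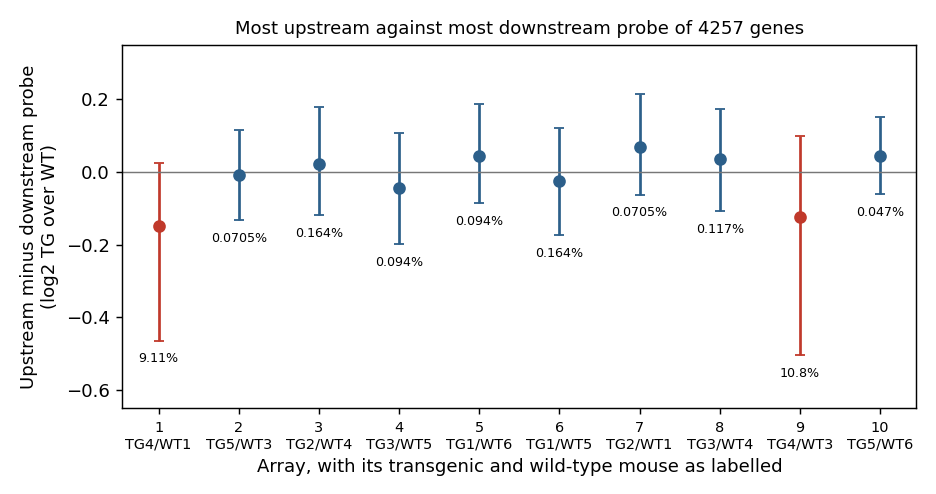
Median (points) and quartiles (bars) over 4257 genes of the log ratio of the most upstream probe minus that of the most downstream probe, for each of the 10 arrays, with the arrays of the mouse labelled TG4 in red. The percentage under each bar is the share of genes below −1, which was 9.11% and 10.8% on arrays 1 and 9 and at most 0.164% elsewhere.

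One of the 3 Rapgef4 probes was lower in TG than in WT as labelled on every array, and the other 2 stayed near 0. Probe A_51_P285916 had log ratios of −3.02, −0.49, −0.65, −0.92, −0.83, −1.19, −0.39, −0.19, −2.98 and −0.45 on arrays 1 to 10. All 10 were negative, and the 2 arrays of TG4 were far below the other 8. The mean was −1.11 ± 0.29 (SE, n = 10 arrays), a 2.16-fold difference, and the median was −0.74. Without TG4 the mean was −0.64 ± 0.10 (SE, n = 8 arrays), with 8 of 8 arrays negative. These 8 arrays were among the 10 on which the probe was chosen, so they are no separate check of the difference. It was negative in both dye orientations, at −1.18 with WT in Cy3 and −1.04 with TG in Cy3.

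The scanner signals showed the same 2 channels. The Cy5 signal of TG4 on array 1 was 78.3 beside a WT1 signal of 873.7 in Cy3, and its Cy3 signal on array 9 was 130.2 beside a WT3 signal of 738.4 in Cy5. In the other 18 channels the signal lay between 379.6 and 1307. Of the negative control spots, 95% lay below 45.7 in Cy5 on array 1 and below 73.2 in Cy3 on array 9, so the probe remained above background in both TG4 channels.

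After the 2 channels of each mouse were averaged, the normalised log2 level of A_51_P285916 was 9.38 in WT1, 9.71 in WT3, 9.93 in WT4, 10.16 in WT5 and 9.81 in WT6. It was 9.10 in TG1, 9.16 in TG2, 9.52 in TG3, 6.54 in TG4 and 9.12 in TG5. TG4 was the lowest mouse by a wide margin, and among the remaining mice the groups overlapped only where TG3 exceeded WT1. The group levels were 9.80 ± 0.29 in WT and 8.69 ± 1.21 in TG (SD, n = 5 mice each), and 9.23 ± 0.20 in the 4 TG mice other than TG4. As everywhere in bulk tissue, fewer cells that express a gene and less RNA per cell cannot be told apart.

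**Figure D2:**
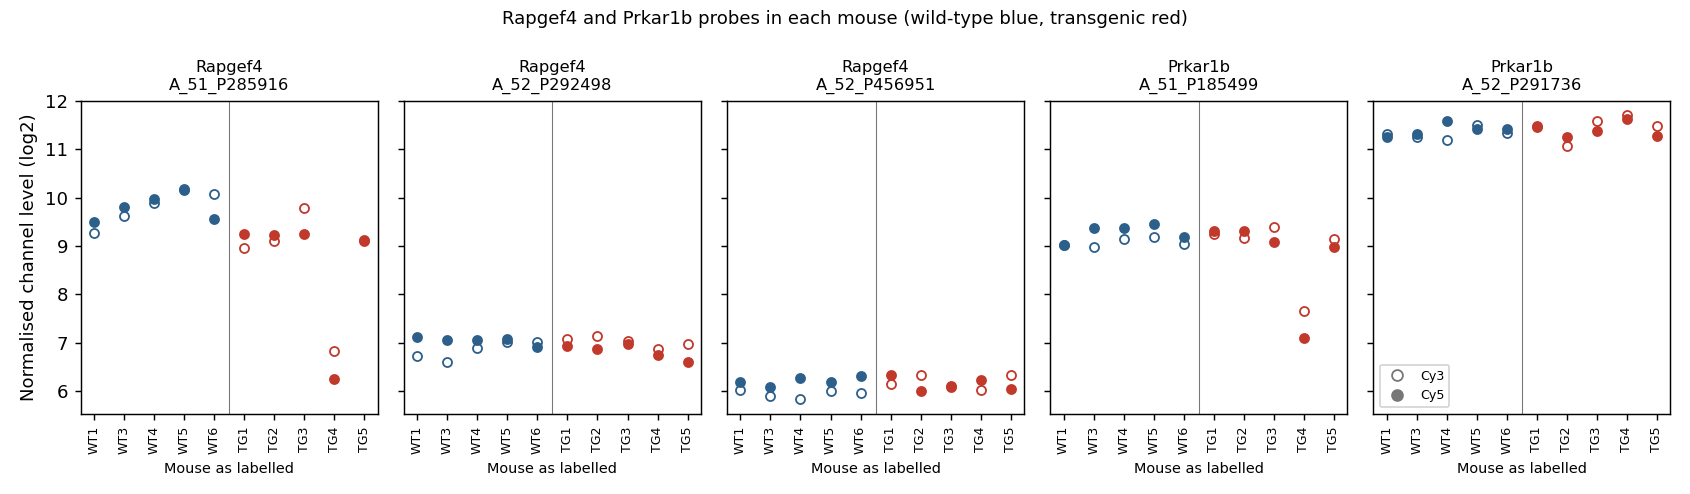
Normalised log2 level of each probe of Rapgef4 and Prkar1b in the Cy3 channel (open) and the Cy5 channel (filled) of every mouse, WT in blue and TG in red. TG4 was low in both channels for A_51_P285916 (mean 6.54) and A_51_P185499 (mean 7.385), and within the range of the other mice or close to it for the other 3 probes.

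Rapgef4 spans a long stretch of the plus strand of chromosome 2, and its probes lie far apart in it (the genome build of the probe positions is not given in the sources used here). A_52_P292498 is the most upstream, at chr2:71728869-71731783, followed by A_52_P456951 at chr2:71860774-71860833. A_51_P285916, the probe that was lower, is the most downstream, at chr2:71940509-71950715. On arrays 1 and 9 it was at −3.02 and −2.98, and the most upstream probe was at 0.02 and −0.20. Among genes whose 2 outer probes differed by more than 1 on these arrays, the upstream probe was more often the lower one. The first and the third cover more genomic bases than an oligonucleotide of this array type is long (2915 and 10207 bases), so each crosses an intron.

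The other 2 probes averaged near 0. A_52_P292498 read from 118 to 193 in Cy3 and from 77.8 to 188 in Cy5, with log ratios from −0.20 to 0.06 and a mean of −0.03 ± 0.03 (SE, n = 10). The extraction software flagged it as well above background in both channels on all 10 arrays. A_52_P456951 read from 67.2 to 102 in Cy3 and from 50.3 to 85.4 in Cy5, close to the limit under which 95% of the negative controls lay, which was 61.8 to 80.2 in Cy3 and 40.0 to 45.7 in Cy5. This probe carried the same flag on all 10 arrays, so the flag does not set the 2 probes apart, and it was above that limit in both channels on 9. Its log ratios ran from −0.17 to 0.38 with a mean of 0.08 ± 0.05. The per-array difference between A_51_P285916 and A_52_P292498 averaged −1.08 ± 1.00 (SD, n = 10), and −0.63 ± 0.32 (SD, n = 8) without TG4. The mean of the 3 probes, the gene-level value, was −0.35 ± 0.10 (SE, n = 10), or −0.19 without TG4.

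**Figure D3:**
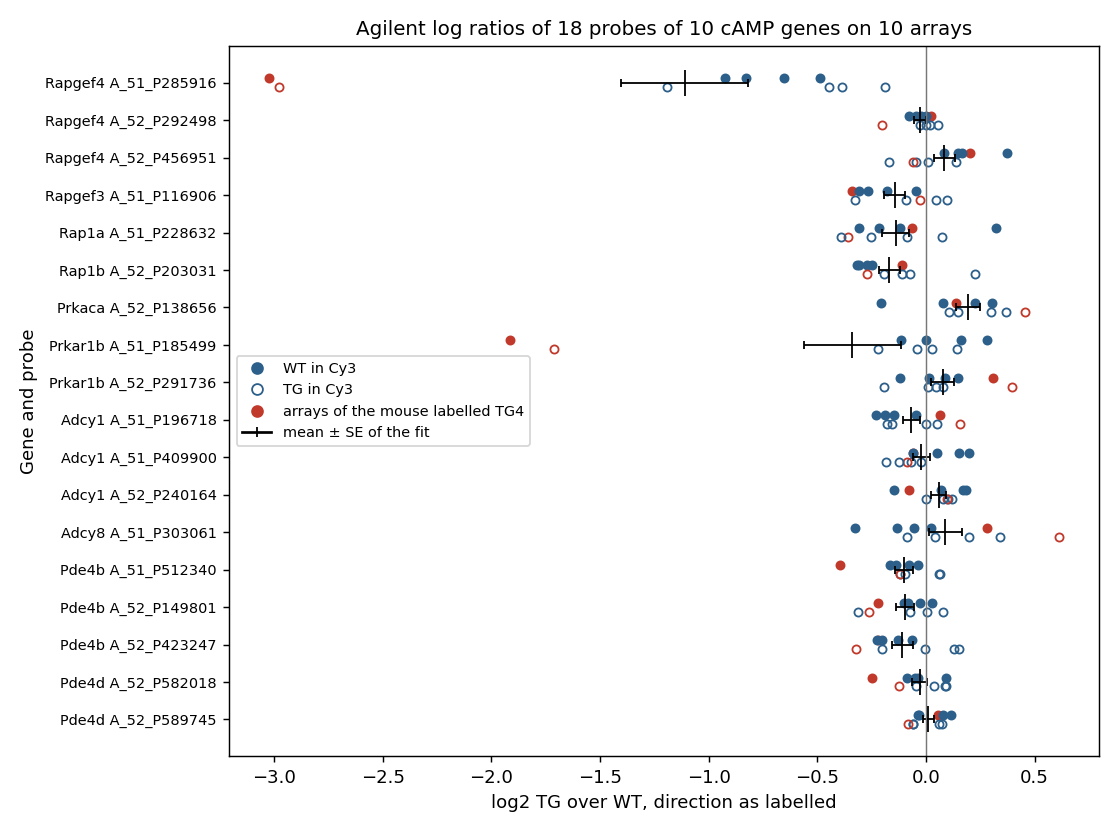
Log ratios of the 18 probes on each of the 10 arrays, with WT in Cy3 (filled) or TG in Cy3 (open), the arrays of TG4 in red, and the mean ± SE of the fit in black. Only A_51_P285916 of Rapgef4 (mean −1.11) and A_51_P185499 of Prkar1b (mean −0.34) had values below −1, and for Prkar1b these were the 2 TG4 arrays alone.

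The probes whose log ratios ran most like those of A_51_P285916 belonged to Canx, Rab18, Nckap1, LOC547403 and Fbxo11, with Pearson's r from 0.990 to 0.996 over the 10 arrays. Canx encodes calnexin, a chaperone of the endoplasmic reticulum, and Rab18 a small GTPase of membrane traffic. All 5 shared the low values of TG4: Canx was at −2.44 on array 1 and −2.42 on array 9, and Nckap1, a subunit of the WAVE actin regulatory complex, at −3.48 and −3.44. Over the other 8 arrays r was 0.947 for Canx, 0.932 for Nckap1 and 0.881 for Fbxo11. Of 21513 named probes of other genes, 831 reached r = 0.9 over 10 arrays and 83 did so over the 8 arrays, with 28 in both. The mean of the 8 arrays was −0.24 for Canx and −0.38 for Nckap1, beside −0.64 for Rapgef4. These correlations share arrays and mice and are given as a description.

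**Figure D4:**
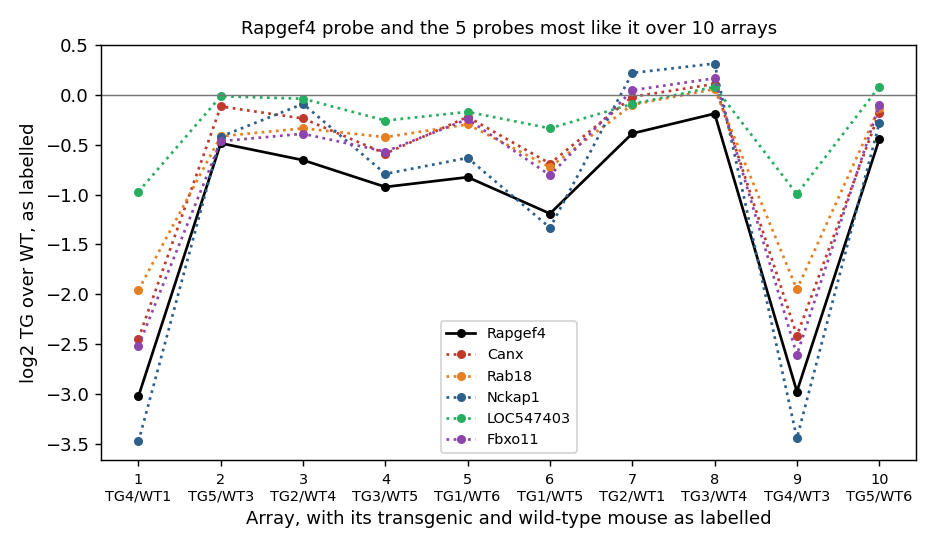
Log ratio on each array of the Rapgef4 probe A_51_P285916 (black) and of the 5 probes of other genes with the highest Pearson's r to it (dotted). All 6 were lowest on arrays 1 and 9, and the Rapgef4 probe alone was negative on every array.

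The 15 probes of the 9 other genes had mean log ratios from −0.34 to 0.19. Of these 15, 2 were called at an FDR of 0.1 (13.3%), Rap1b lower and Prkaca higher as labelled, beside 7.41% of all 41174 probes. An unadjusted limma p under 0.05 was reached by 7 of the 15, beside 7783 of all 41174 probes. The genes were chosen with results of these arrays known, so these shares are no test of the set. Without TG4 none of the 15 was called by limma, beside 4.9% of all probes. An unadjusted p under 0.05 was then reached by 4 of the 15, beside 6659 of all 41174 probes. With a single value per mouse, which removes the double use of each animal, none of the 15 was called either, beside 0.0583% of all probes. In that fit 2 of the 15 had an unadjusted p under 0.05, beside 3308 of all 41174 probes.

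Rap1a and Rap1b are the small G proteins that Epac activates. The Rap1b probe A_52_P203031 had log ratios from −0.32 to 0.23 with a median of −0.22. It was negative on 9 of 10 arrays, array 7 being the exception. The mean was −0.17 ± 0.05 (SE, n = 10, FDR = 0.0841), a 1.12-fold difference, and −0.16 ± 0.06 without TG4 (FDR = 0.174). The FDR rose to between 0.115 and 0.173 when any array other than 7 or 10 was left out, and to between 0.149 and 0.315 without any mouse other than TG2 or WT1. Per mouse the level was 8.79 ± 0.18 in WT and 8.62 ± 0.06 in TG (SD, n = 5 each), and the ranges overlapped. Within dye orientations the difference was −0.25 with WT in Cy3 and −0.08 with TG in Cy3. Rap1a, measured by A_51_P228632, had a mean of −0.14 ± 0.06 (FDR = 0.261) with 8 of 10 arrays negative, and of −0.12 without TG4.

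Rapgef3 encodes Epac1, the exchange factor that is related to Epac2 and is also found outside the nervous system. Its probe A_51_P116906 was negative on 8 of 10 arrays, from −0.34 to 0.10, with a mean of −0.14 ± 0.05 (SE, n = 10, FDR = 0.125) and −0.13 ± 0.05 without TG4. The 3 genes Rapgef3, Rap1a and Rap1b had means of similar size. The summed level of 5 endothelial markers ran from 1304 to 1351 in WT and from 1015 (TG4) to 1250 in TG mice, without overlap. In each of the other marker lists examined the sums of WT and TG mice overlapped. For oligodendrocytes they ran from 14080 to 17740 in WT and from 12210 to 14810 in TG mice. One of the 5 endothelial markers, Cldn5, was called lower, beside 4.17% of all genes. The FDR of Pecam1, Tek, Kdr and Flt1 was from 0.111 to 0.627. All 5 were above the negative controls. How often such sums part between the groups in other sets of genes was not examined. The part of endothelial cells in the Epac and Rap values was not tested.

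The promoters of these genes are shown because the transcription factor CREB, which PKA phosphorylates, binds the cAMP response element TGACGTCA or the shorter TGACG, which reads CGTCA on the complementary strand. Windows from 250 bases before to 50 bases after a start site (RefSeq, GRCm38.p6) were found for 8 of the 10 genes, 16 windows in all. The full element occurred in 1 of them, that of Rap1b, and in 1.79% of all 32851 windows. The short form, which the full element contains on both strands, occurred in 5 of the 16 (31.2%) and in 20.8% of all windows. The stretches around the element, in capitals, lie at chr10:117845979-117846046 (minus strand) for Rap1b, at chr15:97767823-97767887 (minus strand) for Rapgef3, at chr8:83972828-83972892 (plus strand) for the first of 2 matches in Prkaca, at chr5:139150016-139150080 (minus strand) for Prkar1b and at chr4:102421491-102421554 (plus strand) for Pde4b.
Rap1b: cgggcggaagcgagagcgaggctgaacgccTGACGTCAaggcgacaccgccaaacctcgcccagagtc
Rapgef3: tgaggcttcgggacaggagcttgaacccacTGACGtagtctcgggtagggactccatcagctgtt
Prkaca: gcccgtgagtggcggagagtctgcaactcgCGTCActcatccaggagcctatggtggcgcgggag
Prkar1b: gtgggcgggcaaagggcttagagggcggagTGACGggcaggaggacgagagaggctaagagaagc
Pde4b: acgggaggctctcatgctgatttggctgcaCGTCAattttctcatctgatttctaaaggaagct
The element begins 42 bases before the start site in Rap1b, 191 in Rapgef3, 120 in Prkaca, 49 in Prkar1b and 34 in Pde4b. Neither form occurs in the Rapgef4 window. A match in these letters is a description of the sequence and not of binding.

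Prkaca encodes the alpha catalytic subunit of PKA. Its probe A_52_P138656 was positive on 9 of 10 arrays, from −0.21 on array 5 to 0.46 on array 9, with a mean of 0.19 ± 0.05 (SE, n = 10, FDR = 0.0796), a 1.14-fold difference. Without TG4 the mean was 0.17 ± 0.06 (FDR = 0.17). Leaving out array 1, 2, 3, 6, 8 or 9 raised the FDR to between 0.111 and 0.174, and leaving out any mouse other than TG1 or WT6 raised it to between 0.143 and 0.303. The level per mouse was 10.33 ± 0.16 in WT and 10.52 ± 0.11 in TG (SD, n = 5 each), with overlap. Within dye orientations the difference was 0.11 with WT in Cy3 and 0.28 with TG in Cy3.

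Prkar1b encodes a regulatory subunit of PKA that is found mainly in brain, and its 2 probes parted on the TG4 arrays. A_51_P185499 was at −1.91 on array 1 and −1.71 on array 9, and between −0.22 and 0.28 on the other 8. Its mean was −0.34 ± 0.22 (SE, n = 10, FDR = 0.473), and 0.03 ± 0.05 without TG4. A_52_P291736 was at 0.31 and 0.40 on the same arrays, and averaged 0.08 ± 0.05 (FDR = 0.487), or 0.01 without TG4. The gene lies on the minus strand of chromosome 5. The first probe (chr5:138061370-138104732) is thus upstream of the second (chr5:138015671-138015730), and here the upstream probe was the lower one. The difference between the 2 probes averaged −0.42 ± 0.94 (SD, n = 10 arrays) and 0.02 ± 0.18 (SD, n = 8 arrays) without TG4. Over all arrays it had an exact two-sided sign-flip permutation p of 0.324 (adjusted p = 0.688 over 8 probe pairs).

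Adcy1 and Adcy8 were not called. The 3 Adcy1 probes averaged −0.07 ± 0.04, −0.02 ± 0.04 and 0.06 ± 0.03 (SE, n = 10), with FDR from 0.393 to 0.857. Without TG4 they averaged −0.11, −0.01 and 0.07. A_51_P196718 of Adcy1, which read from 1410 to 5820 in Cy5, was negative on 7 of 10 arrays, and positive on both TG4 arrays. The Adcy8 probe A_51_P303061 averaged 0.09 ± 0.08 (FDR = 0.624) and 0.00 ± 0.06 without TG4, its highest value of 0.61 being that of array 9. It read from 77.5 to 196 in Cy3 and from 49.3 to 202 in Cy5. A_51_P409900 of Adcy1 read from 80.1 to 125 in Cy3 and from 62.1 to 106 in Cy5. The limit of the negative controls was 61.8 to 80.2 in Cy3 and 40.0 to 45.7 in Cy5, so both probes read low. The largest difference between probes of one gene other than Prkar1b and Rapgef4 was −0.13 ± 0.19 (SD, n = 10) between A_51_P196718 and A_52_P240164 of Adcy1, with an exact permutation p of 0.0547 (adjusted p = 0.438). Without TG4 it was −0.18 ± 0.16 (SD, n = 8). None of the 8 pairs passed an adjusted p of 0.1, and the exact test took the 10 arrays as independent.

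The phosphodiesterases Pde4b and Pde4d, both specific for cAMP, were not called. The 3 Pde4b probes had nearly equal means of −0.10 ± 0.04, −0.10 ± 0.04 and −0.11 ± 0.05 (SE, n = 10), with FDR of 0.189, 0.211 and 0.242. They were negative on 8, 7 and 8 of the 10 arrays. Their pairwise differences lay between −0.005 and 0.01, with r over the arrays from 0.412 to 0.751. Without TG4 the 3 means were −0.06, −0.06 and −0.07. One of them, A_52_P149801, was well above background in both channels on 5 arrays alone. The 2 Pde4d probes averaged −0.03 ± 0.03 and 0.01 ± 0.03, and 0.01 and 0.02 without TG4. Both were near background, and were well above it in both channels on 5 and 7 of the 10 arrays, so a difference at Pde4d was hardly detectable here.

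The dye moved one member probe. With a dye term in the model, A_52_P456951 of Rapgef4 was brighter in Cy5 by 0.11 ± 0.03 (FDR = 0.0549). For the other 17 probes the dye term was not called, beside 22.6% of all probes. For A_51_P285916 it was −0.07 ± 0.31.

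A wider list of 109 genes from ligands to transcription factors, of which 94 were measured, placed these values in the pathway. At gene level 7 of the 94 (7.45%) were called, 2 higher and 5 lower as labelled, beside 8.25% of all 34479 genes and symbol-less probes (4.07% higher and 4.17% lower). Rapgef4 is one of the 7, and since the set was chosen on this contrast its call is no result. The median log ratio of the 94 was −0.004, beside 0.003 for all genes. Without the 10 members, 4 of 84 (4.76%) were called. None of the 17 ligands and receptors, 6 G protein alpha subunits, 10 adenylyl cyclases or 9 transcription factors was called by limma. Of these 42 genes 3 had an unadjusted limma p under 0.05. They were grouped for having no call, so this low count is no result about them. Over the whole list it was 21 of the 94 at gene level, Rapgef4 included, beside 7783 of all 41174 probes in the fit by probe.

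The called genes outside the member set were Prkacb, Akap8, Pde8a and Pcp4. Prkacb, the beta catalytic subunit of PKA, was lower with −0.25 ± 0.06 (SE, n = 10, FDR = 0.0455), and remained so without TG4 at −0.17 (FDR = 0.0613). Prkaca and Prkacb, the 2 catalytic subunits, thus had opposite signs. Akap8, a nuclear anchoring protein for PKA, was at −0.23 ± 0.07 (FDR = 0.0997), with −0.70 on each TG4 array and −0.12 without them (FDR = 0.108). Pde8a, a phosphodiesterase with high affinity for cAMP, was at −0.11 ± 0.03 (FDR = 0.098), and at −0.13 without TG4 (FDR = 0.118). Pcp4, which encodes a calmodulin-binding peptide rather than a PKA substrate although listed with them, was the largest difference of the list at 0.60 ± 0.13 (FDR = 0.0374), and at 0.58 without TG4 (FDR = 0.0657). It was higher on 9 of 10 arrays. Akap8 and Pde8a were each called in 1 of the 10 fits that left out an array and in 0 of those that left out a mouse, Prkacb in 9 and 5, and Pcp4 in 10 and 5.

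Some genes of the list were low on the TG4 arrays alone. Adcy5 was at −1.37 and −1.35 on arrays 1 and 9, Adcy3 at −1.19 and −1.24, and Rapgef5 at −1.09 and −1.27. Their means without that mouse were 0.04, 0.00 and 0.05. Pde1a, a calmodulin-dependent phosphodiesterase, was called only without TG4, at 0.36 (FDR = 0.068), beside 0.23 ± 0.11 over all arrays. Without TG4, 4 of the 94 genes were called, beside 4.75% of all genes, and 3 of them, Rapgef4 included, were among the 7 called with all arrays. With a single value per mouse none of the 94 was called by limma. Of the 94, 5 had an unadjusted limma p under 0.05 at gene level, beside 3308 of all 41174 probes in the fit by probe.

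**Figure D5:**
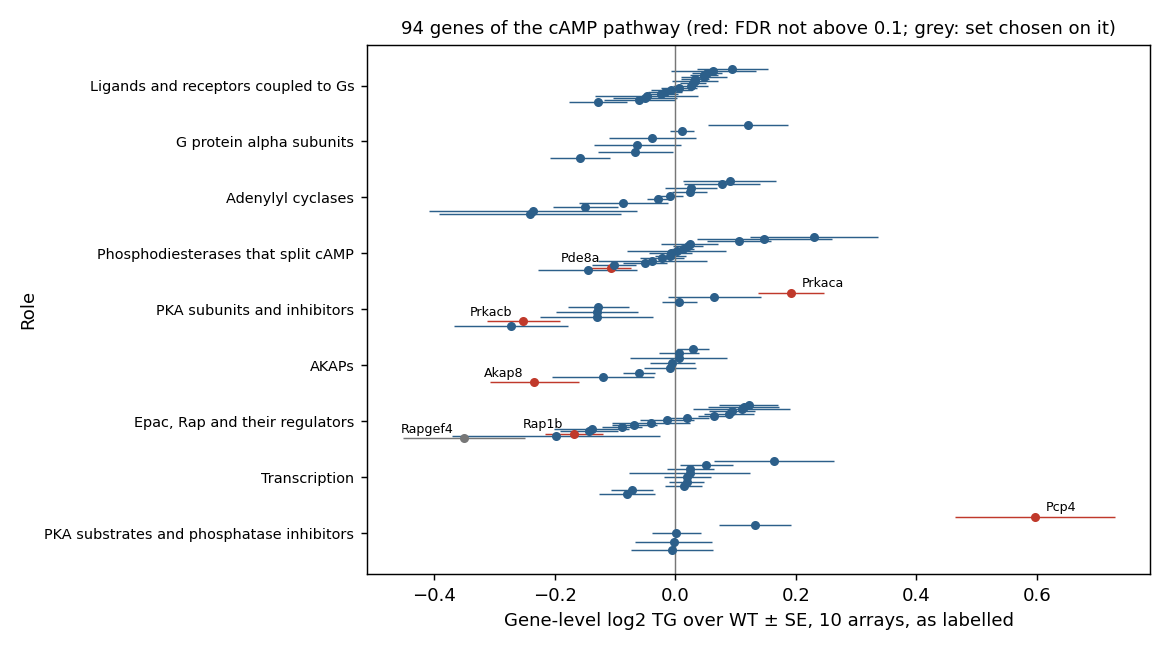
Gene-level log ratio ± SE over 10 arrays of the 94 measured genes of the wider cAMP list, by role, with genes at an FDR not above 0.1 in red and named, and Rapgef4, which was chosen on these values, in grey. Pcp4 (0.60) and Rapgef4 (−0.35) lay at the ends, and 86 of the 94 were within 0.2 of 0.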

How the data were processed

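The Agilent whole mouse genome arrays had been hybridised with aminoallyl-labelled amplified RNA coupled to Cy3 or Cy5. Per the file headers the signals were extracted with Feature Extraction 8.5.1.1. The deposited intensity values are mean and median pixel signals of 43790 features per array, with a log10 ratio and quality flags. The authors applied no background correction and loess normalisation, and this was followed here. Mean intensities of both channels were normalised by loess in limma 3.58.1 (R 4.3.3) with control spots at weight 0, turned to TG over WT, averaged over spots of a probe and fitted with an intercept model and empirical Bayes moderation. P-values were adjusted by Benjamini-Hochberg over all 41174 probes. Gene symbols came from RefSeq accessions for 22072 probes and from the symbol in the array file for 2256, and 16846 had none. Levels per mouse were taken from loess and Aquantile normalised channels.

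The members, the gene lists and the probes named were chosen with earlier results of these data known. Named were all members, the wider-list genes past the FDR and the 5 probes most like the Rapgef4 probe, and further genes that were low on arrays 1 and 9 were named after their values were seen. In the marker check, between 2 and 8 markers per list were measured. Called higher were 2 of 8 neuronal (Nrgn, Calb1), 1 of 5 thalamic (Zic1) and 2 of 5 astrocyte markers (Aqp4, Aldh1l1). Called lower were 1 of 8 striatal (Tac1), 1 of 6 oligodendrocyte (Mbp) and 1 of 5 microglial markers (Itgam). Also lower were 1 of 5 endothelial (Cldn5) and 1 of 2 blood markers (Alas2). Of the choroid plexus markers 0 of 4 were called. Of all 34479 genes and symbol-less probes 8.25% were called, 4.07% higher and 4.17% lower, so most lists had a larger share called than that.

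Deposited ABI intensity values (raw signal) served for Tmem254a alone, since 0 ABI probes matched a member by accession. The Illumina table, with 80 columns named by chip position, was not used here, and the other platforms were not analysed here. Tests on simulated data recovered 100 of 100 probes changed by 1 and 97 of 100 changed by 0.5 on the log2 scale for the 10-array comparison of 41174 probes, with 19 false calls. The simulated noise was independent between arrays, with no mouse shared by arrays and no RNA standing apart. Changes below 0.5 were not simulated, so the recovery does not show whether differences as small as those of Rap1b or Prkaca would be found. The 10 arrays and 5 mice per group limit the precision. Alternatives in background, normalisation, model and samples were tried, and probe positions and similarity without TG4 were examined after the data were seen.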

Additional observations from a re-analysis of the deposited data

Results flagged for a closer look

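In 54 groups of values (the WT mice, the TG mice and the 10 log ratios, for each of 18 probes), 7 held a value far from the others by Dixon's test, which flags about 1 in 20 groups by chance. Among the TG mice, TG4 was the one apart for 4 probes. Its log2 level was 6.54 for Rapgef4 A_51_P285916 beside 9.10 in the nearest mouse, 7.385 for Prkar1b A_51_P185499 beside 9.06, 5.73 for Pde4b A_52_P149801 beside 5.95, and 5.80 for Pde4d A_52_P582018 beside 6.01. Over the arrays, Rapgef4 A_52_P292498 was at −0.20 on array 9, Rap1b A_52_P203031 at 0.23 on array 7, and Pde4b A_51_P512340 at −0.40 on array 1. The 7 include flags for Rapgef4 probes. Those flags are a description and no test result, because the set was chosen on this gene. Arrays 1 and 9 are those of TG4. Dixon's test did not single out the Rapgef4 log ratios on these arrays, since the 2 low values lay side by side.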

How the results depend on the processing

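Over 10 arrays 3053 probes, 3 member probes and 7 wider-list genes were called. Both counts include Rapgef4, which was chosen on this contrast, so that its call is no support. Median centring gave 1335, 1 and 2, and an FDR limit of 0.05 gave 1203, 0 and 2. The scanner's log ratio called 2412 probes, 0 member probes and 3 wider-list genes. With it 8 member probes had an unadjusted limma p under 0.05, beside 8204 of all 41174 probes. The arrays with TG in Cy3 called 3352 probes, 1 member probe and 7 wider-list genes. WT mouse as a random block called 5969 probes and 15 wider-list genes, at a consensus correlation of −0.248. A single value per mouse called 24 probes in limma, with 0 member probes and 0 wider-list genes (3308, 3 and 5 had an unadjusted p under 0.05). After the exchange of arrays it called 11, 0 and 0 (3005, 2 and 8 had an unadjusted p under 0.05). The signs of the members turned, to 1.11 for Rapgef4 A_51_P285916, 0.17 for Rap1b and −0.19 for Prkaca. In the wider list they turned to 0.25 for Prkacb, 0.23 for Akap8, 0.11 for Pde8a and −0.60 for Pcp4. With mouse number as a replicate block the fit per mouse called 0 probes, 0 member probes and 0 wider-list genes (2545, 1 and 6 had an unadjusted p under 0.05). It gave −1.225 for A_51_P285916. The numbers did not pair the mice, as deviations of the 4 same-numbered pairs correlated from −0.224 to −0.102 and none of these mice correlated best with its own number. Leaving out an array or a mouse gave 282 to 3404 probes, 0 to 3 member probes, 0 to 8 wider-list genes and −1.28 to −0.64 for A_51_P285916. The fewest calls came without WT4 (282 probes) and WT3 (366), and without either no member probe was called. As a description and not as support, A_51_P285916, which was chosen on these arrays, passed the limit in 10 of 18 other settings. It passed in 3 of 10 fits without a mouse. The cause of these changes was not tested. Not run were slide or scan as a block, since each slide and each scan held 1 array, and the ABI alternatives, since 0 ABI probes matched a member. Signal over background limited A_52_P456951, both Pde4d probes and A_52_P149801 of Pde4b. Each of them was above the negative control limit on 9 of 10 arrays. A_51_P409900 of Adcy1 and A_51_P303061 of Adcy8 were above it on all 10 but also read low.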
